A study of Mus musculus with 2 samples.

Results

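The MHC class II presentation genes are the 7 genes H2-Aa, H2-Ab1, H2-Eb1, H2-DMa, H2-DMb1, Cd74 and Ciita, chosen by symbol in the deposited matrices, which hold 33904 genes. All 7 were found, each as 1 row, in both libraries. Single cells of dorsal skin were sequenced in 2 libraries, 1 of control mice (Ctrl) and 1 of mice with the MC903 model of atopic dermatitis (AD). Per the labels, the mice were female C57BL/6J mice of 7 weeks, depilated 24 h before the first application. Ctrl skin received 100% ethanol and AD skin received MC903, an analogue of vitamin D, at 4.5 nmol per application, on a square with sides of 2 cm, daily for 10 days until collection on day 10. The number of mice behind each library is not given in the sources used here. With 1 library per group there is no replicate spread, so no test was made between Ctrl and AD, and every 95% interval below covers counting error only.

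MHC class II molecules display peptides from internalised proteins to CD4+ T cells, and are made mainly by dendritic cells, macrophages and B cells. H2-Aa and H2-Ab1 encode the chains of the I-A molecule and H2-Eb1 encodes the beta chain of I-E. Cd74 is the invariant chain that guards the peptide groove, H2-DMa and H2-DMb1 encode the H2-DM heterodimer that exchanges the guarding fragment for peptide, and Ciita is the transactivator that switches class II genes on. In skin, Langerhans cells of the epidermis and dendritic cells of the dermis are the typical carriers.

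By GENCODE (GRCm38), the 5 H2 genes lie close together on chromosome 17. H2-DMa is at chr17:34119541-34139101, H2-DMb1 at chr17:34153072-34160230, H2-Ab1 at chr17:34257689-34269419, H2-Aa at chr17:34282744-34287823 and H2-Eb1 at chr17:34305867-34316674. Ciita is at chr16:10480059-10528418 and Cd74 lies on a further chromosome.

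Class II promoters are known for an X box, bound by the RFX complex, and a Y box, bound by NF-Y, on which CIITA is assembled. A promoter sequence (250 bases before to 50 after the start, RefSeq, GRCm38.p6) was at hand for 4 of the 7 members. The promoters of H2-Aa (chr17:34287774-34288073, minus strand), H2-Eb1 (chr17:34305617-34305916, plus strand) and H2-DMb1 (chr17:34152941-34153240, plus strand) are shown because they hold both boxes, 5′ to 3′, with the X box letters (CTNGNAAC) and the Y box letters (GATTGG) in capitals:
H2-Aa: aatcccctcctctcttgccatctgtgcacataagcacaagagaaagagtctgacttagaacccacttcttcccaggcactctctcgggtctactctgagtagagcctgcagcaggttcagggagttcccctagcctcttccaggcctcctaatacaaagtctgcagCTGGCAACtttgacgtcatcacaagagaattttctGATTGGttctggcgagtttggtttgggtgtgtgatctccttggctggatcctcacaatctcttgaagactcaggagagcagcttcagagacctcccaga
H2-Eb1: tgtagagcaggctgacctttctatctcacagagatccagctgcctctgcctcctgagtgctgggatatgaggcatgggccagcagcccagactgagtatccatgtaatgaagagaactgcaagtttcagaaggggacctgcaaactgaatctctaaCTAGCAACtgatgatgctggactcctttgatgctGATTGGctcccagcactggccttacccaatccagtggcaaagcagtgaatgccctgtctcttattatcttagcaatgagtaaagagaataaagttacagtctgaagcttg
H2-DMb1: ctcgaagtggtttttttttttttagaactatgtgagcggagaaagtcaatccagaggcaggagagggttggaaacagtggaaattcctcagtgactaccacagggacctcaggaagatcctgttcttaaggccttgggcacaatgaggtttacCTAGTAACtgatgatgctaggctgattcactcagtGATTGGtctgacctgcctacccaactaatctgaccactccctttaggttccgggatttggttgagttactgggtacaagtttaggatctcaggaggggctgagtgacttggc
In these promoters the Y box starts 35, 34 and 35 bases after the start of the X box, in the order shown. Neither of the 2 promoters listed for H2-DMa held such a pair. The letters were chosen after these promoters had been read. Searched on both strands, the X box letters occurred in 13.15% and the Y box letters in 16.11% of all 32851 promoters of the same length. The pair on 1 strand with starts 30 to 40 bases apart occurred in 15 promoters (0.0457%), of 14 genes. Of 4 further class II genes with a promoter sequence, H2-Ob, which encodes a chain of the H2-DM inhibitor H2-O, held the pair in these exact letters. H2-Oa, H2-DMb2 and H2-Eb2 held the Y box letters but not the pair. Forms of the X box that differ from the chosen letters were not searched, so a gene without the pair may still have both boxes.

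The Ctrl library held 125184653 UMIs (distinct transcript molecules) in 12598 barcodes and the AD library 76106062 UMIs in 8778 barcodes, and 35 barcodes occurred in both. The filter of the methods left 11399 Ctrl cells with a median of 7813 UMIs and 8179 AD cells with a median of 6330 UMIs. Each cell was assigned to 1 of 26 types by a gate on marker genes, none of them a class II member, and 12.3% of Ctrl cells and 22.1% of AD cells fell in no gate. Each antigen-presenting type of at least 9 cells had at least 1 marker of its own list among its 10 leading genes. In AD Langerhans cells the macrophage genes C1qa and C1qc also led, and in Ctrl cDC1s the Langerhans marker Cd207. The Langerhans marker H2-M2 led in Ctrl mature dendritic cells, and the monocyte marker Ly6c2 in Ctrl plasmacytoid dendritic cells. A Cd207 UMI was in 17.9% of Ctrl and 3.33% of AD mature dendritic cells. Levels are given in CPM, the UMIs a type holds for a gene scaled to a common total for every type. Levels are not corrected for transcript length, since 3′ libraries count ends of transcripts.

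Over all kept cells, the 7 members held 182601 UMIs in Ctrl (1736 CPM) and 45394 UMIs in AD (736 CPM). In Ctrl, cDC1s, cDC2s, mature (migratory) dendritic cells (mature DCs) and Langerhans cells together were 2.52% of the cells and held 61.1% (60.9 to 61.4%) of the class II UMIs. In AD the same gates were 0.782% of the cells and held 46.9% (46.4 to 47.3%). Macrophages held 16.4% (16.2 to 16.6%) in Ctrl and 27.8% (27.4 to 28.2%) in AD. The number of captured cells enters these shares. There, cDC2s numbered 173 in Ctrl and 22 in AD, cDC1s 73 and 3, macrophages 397 and 182, mature DCs 28 and 30, and Langerhans cells 13 and 9. The Leiden cluster named for cDC2s held more cells, 437 in Ctrl and 93 in AD, and no cluster was named for cDC1s or Langerhans cells. A loss of dendritic cells from the skin and a difference in their recovery cannot be told apart with 1 library per group.

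Among the gated types with 9 or more cells, the summed class II level in Ctrl was highest in Langerhans cells (66065 CPM, 64415 to 67747), then in cDC1s (55767 CPM, 55198 to 56341) and cDC2s (53625 CPM, 53210 to 54043). Plasmacytoid dendritic cells (23221 CPM, 17 cells), mature DCs (22906 CPM), macrophages (17354 CPM), B cells (15618 CPM, 9 cells) and monocytes (15513 CPM, 35 cells) followed. Of these neighbours, plasmacytoid and mature DCs, and B cells and monocytes, did not differ beyond counting error. The level of plasmacytoid cells rested on few cells: their median cell had 3007 CPM and 2 cells held 41.8% of the UMIs, beside medians of 10698 CPM in mature DCs and 12110 CPM in macrophages, so the order by median differs from the order by sum. In AD the order was cDC2s (39346 CPM), Langerhans cells (34432 CPM), macrophages (8915 CPM), mature DCs (7490 CPM) and monocytes (1721 CPM, 36 cells). By the median cell, AD mature DCs (2302 CPM) stood above AD macrophages (411 CPM). Cd74 carried the most UMIs of any member in each of these Ctrl types, at 26091 CPM in Langerhans cells, 22217 CPM in cDC2s and 7738 CPM in macrophages. In AD mature DCs H2-Aa (2583 CPM) and Cd74 (2440 CPM) did not differ beyond counting error.

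**Figure D1:**
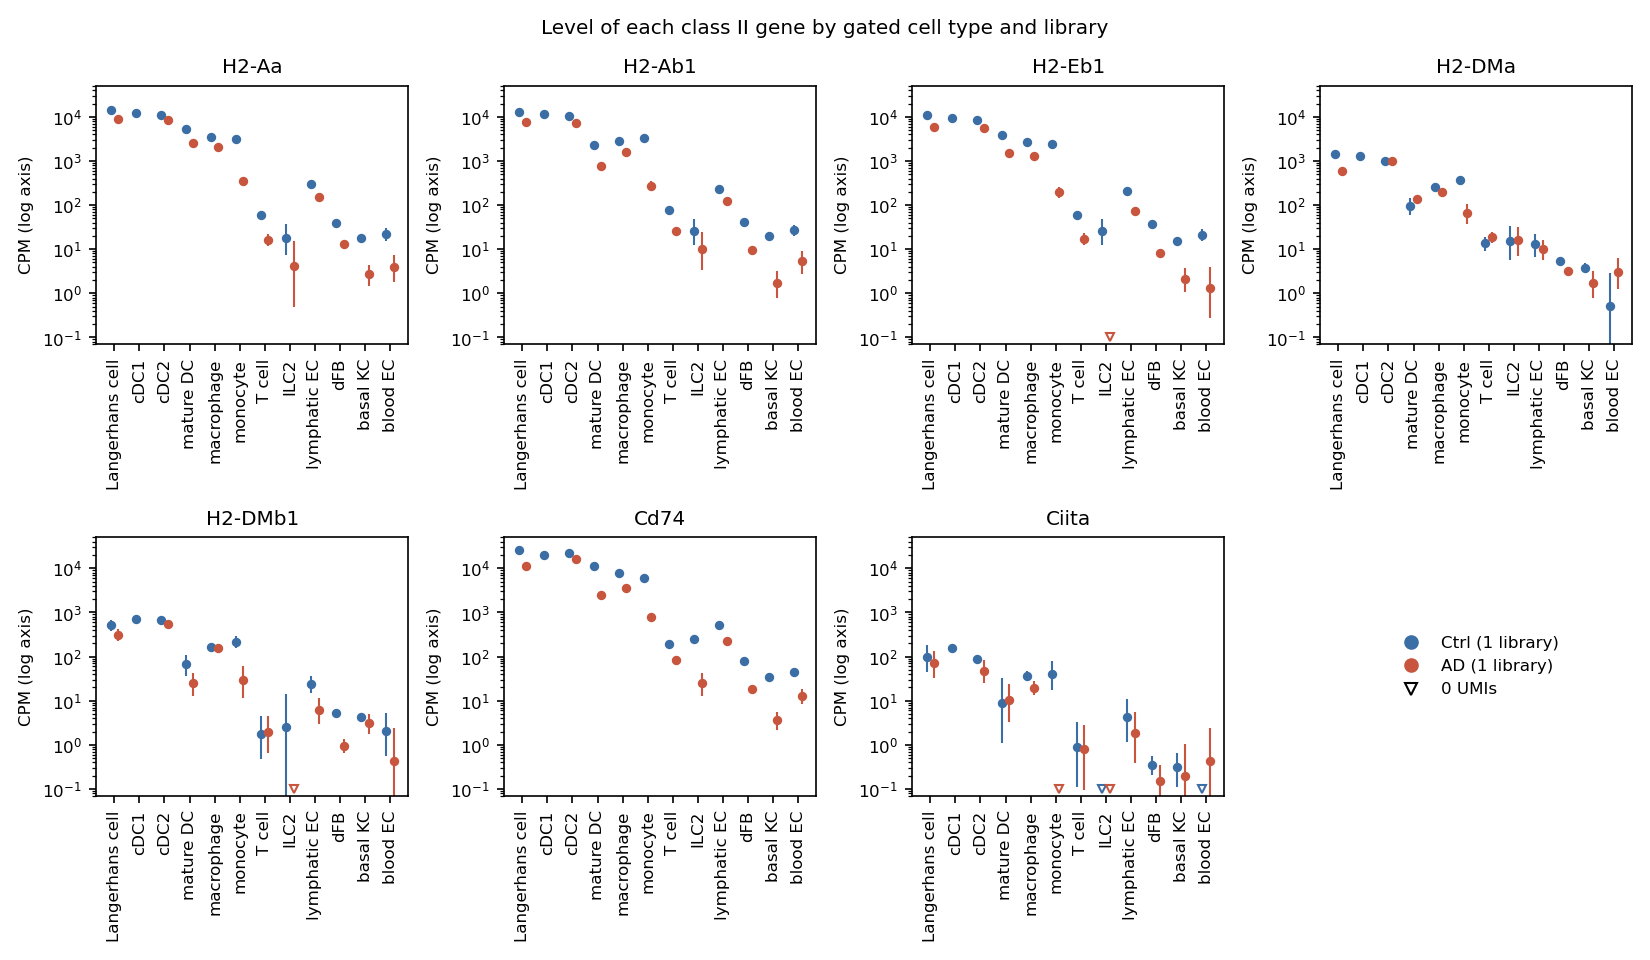
Level of each of the 7 class II genes, in CPM on a log axis, in 12 gated cell types of Ctrl (blue) and AD (red), 1 library each. Points are sums over the cells of a type, bars are exact Poisson 95% intervals for counting error, open triangles mark 0 UMIs, and types with fewer than 9 cells in a library are not drawn. The dendritic types and macrophages stand at 769 CPM or more for H2-Aa, H2-Ab1, H2-Eb1 and Cd74, whereas dermal fibroblasts (dFBs), keratinocytes (KCs) and blood endothelium stay at or under 80.1 CPM.

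Ciita, the transactivator, was detected at low levels. In Ctrl its level was 155 CPM in cDC1s (126 to 188), with a UMI in 64.4% of cells (52.3 to 75.3%). In Ctrl cDC2s it was 89.2 CPM (73.1 to 108), with a UMI in 35.3% of cells. Ctrl macrophages had 37.1 CPM (28.6 to 47.4) and AD macrophages 19.8 CPM (13.1 to 28.6), with a UMI in 11.1% and 7.14% of cells. Mature DCs had 2 Ciita UMIs in Ctrl (8.87 CPM, 1.07 to 32.1) and 5 in AD (10.3 CPM, 3.35 to 24.1). In Ctrl, Ciita was thus higher in cDC1s than in cDC2s and higher in cDC2s than in macrophages, beyond counting error, while the intervals of macrophages and mature DCs overlapped. Langerhans cells had 9 Ciita UMIs in each library (97.8 and 70.8 CPM). After each cell was thinned to 1000 UMIs, 9.59% of Ctrl cDC1s and 9.41% of Ctrl cDC2s had a Ciita UMI, so the shares at full depth follow depth as well as level (median of 8916 and 6703 UMIs per cell).

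Next, AD was set against Ctrl within each antigen-presenting type. The class II level was lower in AD in macrophages, cDC2s, mature DCs, Langerhans cells and monocytes. The fibroblast gene Col1a1, whose RNA these cells should lack, was lower in AD in the same gates, at 331 and 20.5 CPM (Ctrl and AD) in macrophages, 239 and 3.69 CPM in cDC2s, and 151 and 16.5 CPM in mature DCs, and its part in the class II difference was not tested. Ctrl macrophages had 17354 CPM (17158 to 17552) for the 7 members summed, and AD macrophages 8915 CPM (8761 to 9072), which is a log2 ratio (AD over Ctrl) of -0.96 (-0.99 to -0.93). In cDC2s the log2 ratio was -0.45 (-0.48 to -0.42), in Langerhans cells -0.94, in mature DCs -1.61 (-1.67 to -1.55) and in monocytes -3.17 (-3.32 to -3.02). The monocyte value rested on few cells, since 24 of 36 AD monocytes had no class II UMI and 4 cells held 96.1% of the UMIs, and the median cell had 3721 CPM in Ctrl and 0 CPM in AD. AD cDC1s are left out of this comparison, as only 3 cells were gated. In bulk or pooled values of a type, fewer class II-rich cells and less class II RNA per cell cannot be told apart.

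The members did not differ by equal amounts. In macrophages H2-Aa was 3562 CPM in Ctrl and 2032 CPM in AD, H2-Ab1 2860 and 1565 CPM, H2-Eb1 2731 and 1297 CPM, and Cd74 7738 and 3652 CPM. The loading genes differed less in macrophages. H2-DMa was 260 and 196 CPM there. H2-DMb1 was 167 and 153 CPM, and its log2 ratio of -0.12 (-0.38 to 0.14) includes 0. In cDC2s H2-DMa was 1008 CPM in Ctrl and 992 CPM in AD, a log2 ratio of -0.02 (-0.22 to 0.17), beside -0.37 for H2-Aa, -0.47 for H2-Ab1, -0.59 for H2-Eb1 and -0.45 for Cd74. In mature DCs Cd74 was 11313 CPM in Ctrl and 2440 CPM in AD, the lowest log2 ratio of the members there (-2.21, -2.31 to -2.11), and H2-DMa was 97.6 and 136 CPM, with an interval of the log2 ratio from -0.23 to 1.25. In the 9 AD Langerhans cells H2-DMa was 590 CPM, beside 1412 CPM in the 13 Ctrl cells. H2-DMb1 had a log2 ratio of -1.42 (-2.65 to -0.23) in mature DCs, from 15 Ctrl and 12 AD UMIs. Its log2 ratio was -0.25 in cDC2s and -0.70 in Langerhans cells. H2-Aa, H2-Ab1, H2-Eb1 and Cd74 thus had a log2 ratio below 0, beyond counting error, in all 4 types.

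**Figure D2:**
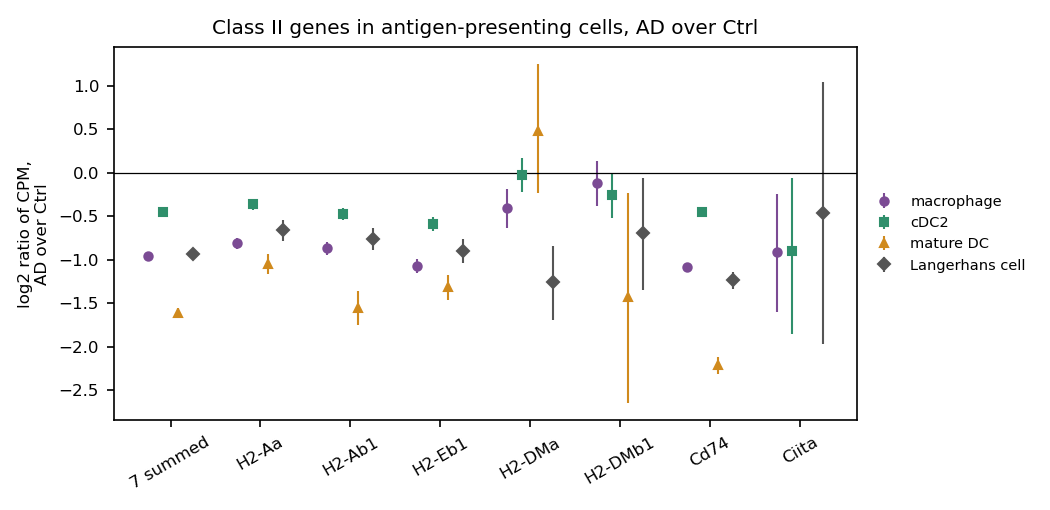
Log2 ratio of CPM, AD over Ctrl, of the 7 class II genes summed and of each gene in macrophages (circles), cDC2s (squares), mature DCs (triangles) and Langerhans cells (diamonds), 1 library per group. Bars are exact 95% intervals for counting error. The chain genes and Cd74 lie below 0 in each type, and H2-DMa of cDC2s lies at -0.02.

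To read these differences against the other genes, every gene that reached 50 CPM in Ctrl or AD was counted, with 1 CPM added. In macrophages 9.15% of 3639 genes were at least 2-fold lower in AD and 6.79% at least 2-fold higher. Of the 6 members above 50 CPM there, H2-Eb1 and Cd74 were at least 2-fold lower, and the median log2 ratio of the 6 was -0.84 against -0.01 for all genes. In cDC2s 8.56% of 3389 genes were at least 2-fold lower and 9.06% higher, and none of the 7 members passed 2-fold in either direction. In mature DCs 11.1% of 3028 genes were at least 2-fold lower and 13.7% higher, and 5 of the 6 members above 50 CPM were lower, with a median of -1.35 against 0.04 for all genes.

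Macrophages varied widely from cell to cell. In Ctrl the summed class II level of a cell had a median of 12110 CPM, with quartiles of 1992 and 28032 CPM, and 30 of 397 cells had no class II UMI. In AD the median was 411 CPM, with quartiles of 0 and 3737 CPM, and 57 of 182 cells had no class II UMI. Above 10000 CPM were 214 Ctrl and 31 AD macrophages. The AD level therefore rested on few cells, since the 19 cells with the most class II UMIs held 79.0% of them, beside 41.7% for the 40 top cells in Ctrl (10% of the cells in each library). AD macrophages above 10000 CPM had a median of 14195 UMIs per cell and those under 1000 CPM 4559 UMIs, whereas in Ctrl the medians were 4024 and 3941 UMIs. Because of this, weighting every cell equally moved the log2 ratio for macrophages to -1.65.

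Cells that resemble dendritic cells may enter a macrophage gate, so their markers were read in it. A UMI of Cd209a, a marker of cDC2s, was found in 21.7% of Ctrl and 2.2% of AD macrophages. Other dendritic markers were in more AD than Ctrl macrophages: Ccr7 (1.26% in Ctrl, 2.75% in AD), Cd207 and Flt3 (1.01% and 2.75% each) and Itgax (2.27% and 8.79%). Xcr1 was in 0.252% and 0%. Without the cells that had a UMI of Cd209a, Flt3, Xcr1, Clec9a, Ccr7 or Cd207, 301 Ctrl and 166 AD macrophages were left, with 16760 and 7616 CPM and a log2 ratio of -1.14. The cells left held 20221 of 29914 class II UMIs in Ctrl and 9028 of 12617 in AD. Macrophage genes differed too: Ctrl macrophages had 411 CPM of Adgre1 and AD macrophages 148 CPM, and C1qa was 3162 and 1903 CPM. Whether a change in the kinds of macrophages accounts for the class II difference was not tested.

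cDC2s were far more even. Their cells had a median of 53713 CPM in Ctrl (quartiles 41581 and 65447) and 41337 CPM in AD (quartiles 32923 and 49021), and none of these cells was without a class II UMI. Among the cDC2 markers, Cd209a was 663 CPM in Ctrl and 218 CPM in AD cDC2s, and Flt3 105 and 33.2 CPM. Itgax went the other way, with 97.6 and 170 CPM. Whether a change in the kinds of cDC2s has a part in their values was not tested. Langerhans cells had medians of 65574 CPM in Ctrl and 36814 CPM in AD. Mature DCs had medians of 10698 CPM in Ctrl and 2302 CPM in AD, and 1 of 28 Ctrl cells and 8 of 30 AD cells were under 1000 CPM. Between cells, H2-Aa went with H2-Ab1, H2-Eb1 and Cd74, with Spearman correlations of 0.88 to 0.89 over 397 Ctrl macrophages and 0.82 to 0.85 over 182 AD macrophages. These describe cells of 1 library each, which share depth, and carry no test.

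**Figure D3:**
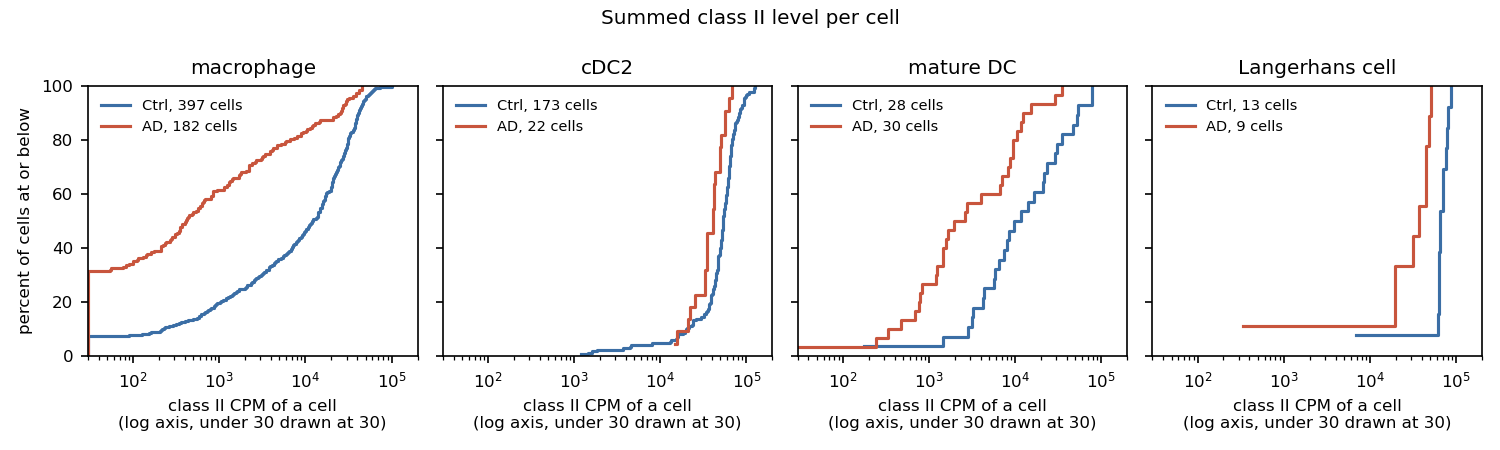
Cumulative percent of cells by the summed class II level of a cell, in CPM on a log axis, for macrophages, cDC2s, mature DCs and Langerhans cells of Ctrl (blue) and AD (red). Cells under 30 CPM, zeros included, are drawn at 30. The AD macrophages lie left of the Ctrl macrophages over most of the range, with medians of 411 and 12110 CPM, and cDC2s rise steeply in both libraries.

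Mature DCs carry antigen to lymph nodes and are marked by Ccr7. They differed from the other dendritic types in H2-Ab1 and, in Ctrl, H2-DMa per H2-Aa UMI. For each H2-Aa UMI, Ctrl mature DCs had 0.423 H2-Ab1 UMIs (0.380 to 0.469), beside 0.928 in Ctrl cDC2s (0.906 to 0.952) and 0.803 in Ctrl macrophages. In AD the ratio was 0.298 (0.264 to 0.334) in mature DCs and 0.862 (0.812 to 0.916) in cDC2s. H2-DMa was at 0.0182 UMIs per H2-Aa UMI in Ctrl mature DCs (0.0114 to 0.0277) and 0.0916 in Ctrl cDC2s (0.0862 to 0.0972). Cd74 was at 2.11 UMIs per H2-Aa UMI in Ctrl mature DCs, close to the 2.02 of cDC2s. In AD it was at 0.945 in mature DCs, beside 1.90 in cDC2s. Langerhans cells were at 1.83 in Ctrl and 1.23 in AD. Their AD H2-DMa ratio of 0.0656 (0.0512 to 0.0829) overlapped the 0.0528 (0.0406 to 0.0677) of AD mature DCs. H2-Eb1 per H2-Aa UMI was lower in AD than in Ctrl in macrophages (0.638 and 0.767), cDC2s (0.654 and 0.764) and mature DCs (0.591 and 0.710), with intervals that did not overlap. It was also lower in AD over all kept cells (0.634 and 0.784) and in dFBs (0.645 and 0.916), so this difference was not particular to these types.

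**Figure D4:**
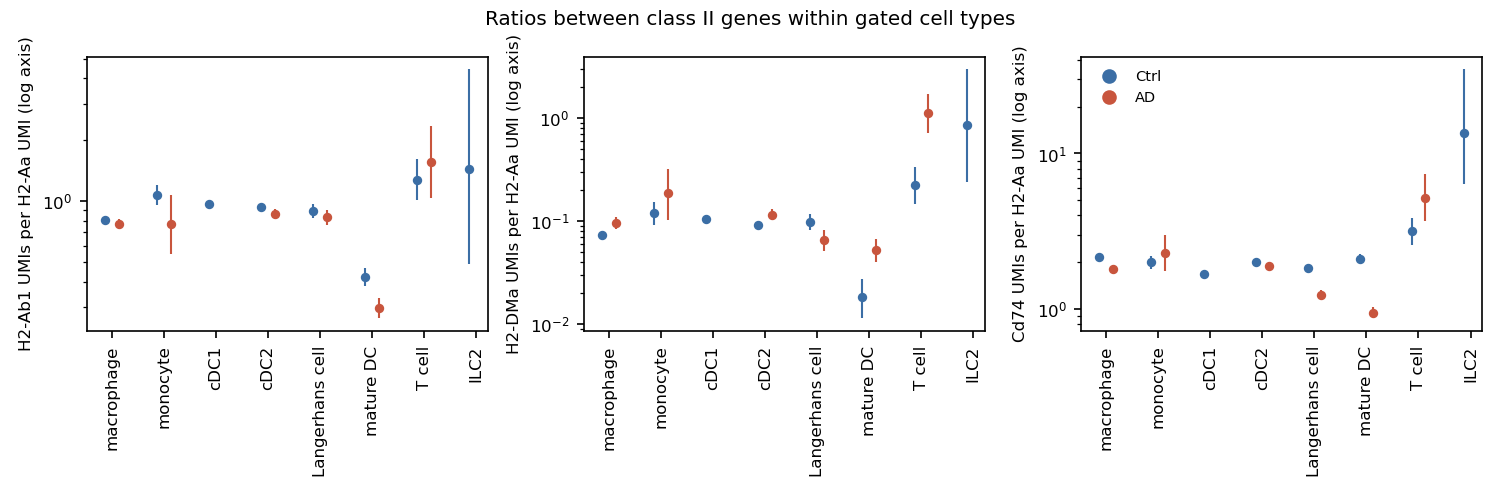
UMIs of H2-Ab1, H2-DMa and Cd74 per UMI of H2-Aa (log axes) in gated antigen-presenting cells, T cells and ILC2s of Ctrl (blue) and AD (red), with exact 95% intervals for counting error. Among the dendritic types, mature DCs lie lowest for H2-Ab1 and H2-DMa, and T cells and ILC2s lie high for H2-DMa and Cd74. In AD the H2-DMa intervals of mature DCs and Langerhans cells overlap.

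Lymphocytes held little class II RNA, but not in the ratio of the antigen-presenting cells. Over all kept Ctrl cells there were 1.98 Cd74 UMIs per H2-Aa UMI, whereas cells of the ILC2 gate had 13.6 (6.34 to 34.7, from 95 and 7 UMIs) and T cells 3.16 (2.59 to 3.86). The ILC2 gate required no lead over T cell markers. Its leading genes held Ctla4 in both libraries, Tnfrsf4 in Ctrl and Cd28 in AD, which also led in AD T cells. T cells may thus be among the ILC2s named here. Cd74 had a UMI in 44.4% of 124 Ctrl ILC2s (median depth 2816 UMIs), beside 16.4% of 5309 Ctrl dFBs (median depth 8947 UMIs), and in 19.0% and 3.71% after thinning to 1000 UMIs. Ctrl ILC2s had 246 CPM of Cd74 (199 to 301), and AD ILC2s 24.9 CPM (12.9 to 43.5), an interval that holds the 18.8 CPM of AD dFBs. H2-DMa per H2-Aa UMI was 0.224 (0.145 to 0.335) in Ctrl T cells, against 0.0968 over all kept Ctrl cells. In AD T cells it was 1.12 (0.722 to 1.74), from 47 and 42 UMIs, against 0.0999 over all kept AD cells. H2-DMa was 13.5 CPM in Ctrl and 18.4 CPM in AD T cells, with an interval of the log2 ratio from -0.24 to 1.16. H2-Aa was 60.2 CPM in Ctrl and 16.5 CPM in AD T cells. A H2-DMa UMI was found in 9.81% of AD T cells. The share of background RNA in lymphocytes was not estimated.

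In non-immune cells class II was compared with background RNA, that is, RNA of other cells in the droplet. The share of background RNA in a type was taken from 13 leukocyte genes outside every gate, such as Tyrobp, Fcer1g and Ptprc, and multiplied by the class II level of the library. In Ctrl dFBs 208.8 CPM of class II was measured and 219 CPM would come from background RNA, a ratio of 0.954 (0.921 to 0.988). Without the 213 Ctrl dFBs with at least 3 reference UMIs, 65.4 CPM of class II was left. The estimate does not separate free RNA from leukocyte RNA held by few cells. The ratio was 0.951 in Ctrl basal keratinocytes (96.4 CPM measured), 0.883 in suprabasal keratinocytes (103 CPM) and 0.829 in blood endothelium (117 CPM). In AD it was 1.25 in dFBs (53.7 CPM measured, 42.8 CPM from background RNA), 0.392 in basal keratinocytes (15.1 CPM) and 1.33 in blood endothelium (27.3 CPM, 0.883 to 2.01). With each of the 13 genes used alone, the ratio ran from 0.221 to 1.18 in Ctrl dFBs, from 0.126 to 1.60 in AD dFBs, from 0.630 to 1.39 in Ctrl basal and from 0.339 to 3.97 in Ctrl suprabasal keratinocytes. With the 13 genes together, summed class II in Ctrl dFBs and keratinocytes was no higher than the background level, but single genes put it on either side of 1. Schwann cells were read apart, because their leukocyte reference level (800.0 CPM in Ctrl) exceeded that of the library.

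The class II UMIs of non-immune cells sat in few cells. Of 5309 Ctrl dFBs, 57.1% had no class II UMI, and 89 cells with at least 10 class II UMIs held 69.7% of all class II UMIs of dFBs. Of these 89 cells, 74 also had at least 3 UMIs of the leukocyte reference genes, beside 4.01% of all Ctrl dFBs. In AD 11 of 4080 dFBs had at least 10 class II UMIs, 8 of them with at least 3 reference UMIs, and 1 cell held 570 of the 1802 class II UMIs. Without that cell the ratio to background RNA in AD dFBs was 0.909. Lymphatic endothelium had ratios above 1, 1.51 in Ctrl (1.33 to 1.72) and 2.62 in AD (2.31 to 2.98), and there 1 cell of 174 held 585 of 1196 UMIs in Ctrl and 1 cell of 224 held 803 of 941 UMIs in AD. Without the cell with the most class II UMIs, the ratios were 1.19 and 1.33. In Ctrl blood endothelium 4 cells had at least 10 class II UMIs, the top cell 22, and none of them had 3 reference UMIs. The lymphatic marker Prox1 was among the 10 leading genes of that gate, which took 267 Ctrl and 219 AD cells. The Leiden cluster named for blood endothelium held 118 and 126 cells, and that named for lymphatic endothelium 359 and 368. Some cells of the blood gate may therefore be lymphatic.

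**Figure D5:**
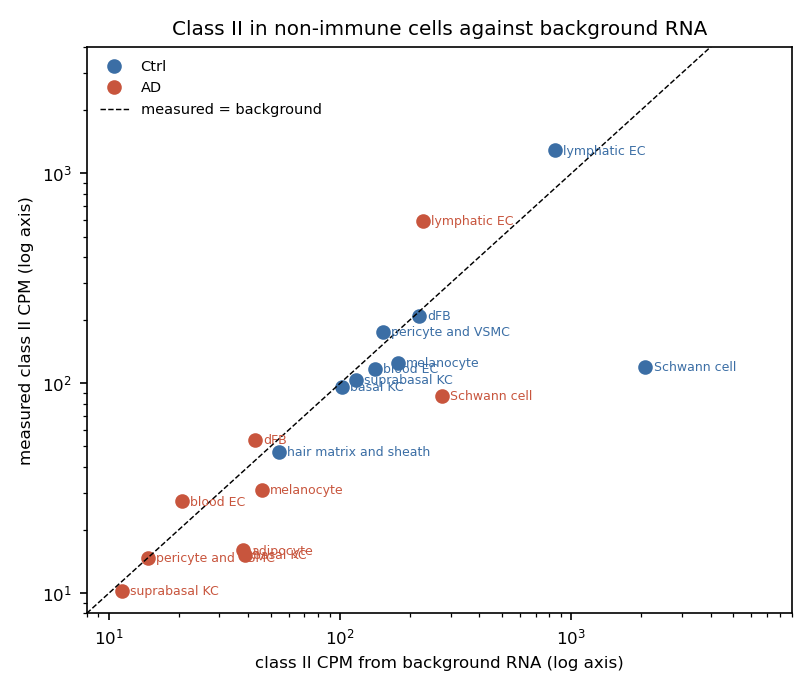
Measured class II level (7 genes summed) against the level that background RNA would give, both in CPM on log axes, for non-immune types with at least 20 cells and more than 3 class II and reference UMIs in Ctrl (blue) and AD (red). The dashed line marks equality. Most types lie near or below the line, lymphatic endothelium lies above it, and Schwann cells lie far below it.

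Single members departed from the sum for the loading genes. In Ctrl basal keratinocytes H2-DMb1 was 4.20 CPM (82 UMIs), 3.16 times the background level (2.48 to 3.97), while H2-Aa was 0.857 times and Cd74 0.852 times theirs. In AD basal keratinocytes 16 H2-DMb1 UMIs gave a ratio of 6.11 (3.42 to 10.2), beside 0.286 for H2-Aa. In dFBs H2-DMb1 was 1.83 times the background level in Ctrl (1.61 to 2.07) and 1.71 times in AD (1.17 to 2.43), and H2-DMa 1.23 times in Ctrl (1.09 to 1.39) and 3.13 times in AD (2.55 to 3.81). With single reference genes, H2-DMb1 in Ctrl dFBs ran from 0.423 to 2.25 and H2-DMa in AD dFBs from 0.314 to 3.98, on both sides of 1, and H2-DMb1 in Ctrl basal keratinocytes from 2.09 to 4.61. H2-DMb1 per H2-Aa UMI was 0.234 in Ctrl basal keratinocytes (0.182 to 0.299) and 0.131 in Ctrl dFBs, against 0.0636 over all kept Ctrl cells. These levels are low, and H2-DMb1 and H2-DMb2 are near-identical copies whose reads the counting may have split.

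Among further genes of the class II pathway, a list of 42 names was read, of which 39 were found. In macrophages 20 of the 39 had at least 50 CPM. Of these, 3 were at least 2-fold lower in AD and 1 at least 2-fold higher, beside 9.15% and 6.79% of all genes. Neither count was far from these shares. Among the lower genes were Cd83, which slows the turnover of class II at the cell surface (1195 and 402 CPM), and Cst3, an inhibitor of cathepsins (2661 and 991 CPM). The higher gene was Cd274, which encodes the inhibitory ligand PD-L1 (71.4 and 341 CPM). Ctss, the protease that trims the invariant chain, was 1400 CPM in Ctrl and 2327 CPM in AD, so it differed in the other direction from its substrate Cd74. The median log2 ratio of the 20 genes was -0.24.

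In cDC2s 23 genes of the list had at least 50 CPM, 2 were lower and 7 higher in AD, beside 8.56% and 9.06% of all genes, with a median log2 ratio of 0.24. The count of lower genes was near the share among all genes. The higher genes were the regulators Irf1 (103 and 306 CPM), Irf4 (83.3 and 243 CPM) and Irf8 (45.5 and 173 CPM), the cathepsins Ctsl and Ctsd, and Cd40 and Cd274. The lower genes were Nfya, a subunit of NF-Y (71 and 2 UMIs), and the costimulatory ligand Cd80 (91 and 9 UMIs). In mature DCs 25 genes had at least 50 CPM, 3 were lower and 6 higher, beside 11.1% and 13.7% of all genes, with a median of 0.36. The count of lower genes was again near the share among all genes. The higher genes were Irf1 (293 and 612 CPM), Irf4 (31.1 and 130.2 CPM), Irf8 (669.9 and 1349 CPM), and the costimulatory ligands Cd86 (138 and 622 CPM), Cd80 (106 and 252 CPM) and Tnfsf4 (OX40L, 0 and 79 UMIs). Among the lower genes were the costimulatory ligand Icosl (84.3 and 41.3 CPM) and the protease Ctsb (528 and 239.7 CPM), and the costimulatory receptor Cd40 was 257 and 132 CPM, within 2-fold. The third lower gene was H2-Eb2, a further beta chain gene, which was highest in mature DCs (173 CPM in Ctrl, 33.1 CPM in AD). H2-Ea, the alpha chain of I-E, had 1 UMI in all gated types of at least 20 cells, and C57BL/6 mice are known to lack its expression.

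The 10 genes most like the members over 39 pools of a type and a library (at least 20 cells each) were, in order, Aif1, Tbc1d9, Ctss, Ly86, Pld4, Mcub, Tnip3, Slamf7, Cd83 and Mpeg1. Their Pearson correlations with the mean profile of the members, on log2(CPM + 10), ran from 0.94 for Aif1 to 0.89 for Mpeg1, among 8973 genes. Aif1 is also one of the 13 reference genes. Among the members, the correlation with the mean of the other 6 was highest for H2-Ab1 (1.00) and lowest for Ciita (0.91). The pools share libraries and depth, so these values are a description.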

How the data were processed

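For each library the authors deposited a matrix of counts: whole UMIs per gene and barcode from 10x libraries, not normalized. The labels name Cell Ranger 3.1.0, Seurat 5.0 and mm10, the matrix headers Cell Ranger 5.0.0, and the methods another version. The digestion enzyme differs between labels and methods.

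Kept cells had 200 to 6000 genes and no more than 10% of UMIs from 13 mitochondrial genes, as in the methods. A gate marker was present when its UMIs exceeded the 0.99 Poisson quantile of 10% of the library's profile. A type needed a share of 0.25 of its list, at least 2 markers (3 in lists of 8 or more), and a lead of 0.1 over other lineages, and some types a defining marker. The gate went through several versions judged by marker tables and clusters. Per-cell class II levels had been seen when the defining markers of mature DCs were narrowed to Ccr7 and Ccl22. Members and lists were chosen with earlier results of these data known.

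Intervals (95%) are exact: Poisson for sums, Clopper-Pearson for shares, conditional binomial for ratios. Ratios between libraries needed more than 3 UMIs in each. Doublets were kept. Named genes are the 7 members, pathway genes from a list counted whole, and the 10 genes most like the members, with markers and reference genes as checks. The values of 1 pathway gene are not reported here. The scripts were tested on simulated data. Alternatives were all barcodes, a deeper filter, other gates, Leiden clusters (resolution 1.5, 2000 variable genes, 30 components, 20 neighbours), the highest Scrublet scores left out, other reference settings and other thresholds. Python 3.11.15, scanpy 1.11.5, scipy 1.17.1 and matplotlib 3.10.9 were used.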

Additional observations from a re-analysis of the deposited data

Results flagged for a closer look

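Cells that no gate took held 9.23% of the class II UMIs of Ctrl and 16.41% of those of AD, a signal outside the comparisons by type. In Ctrl, 104 of these 1399 cells had at least 10 class II UMIs and held 94.8% of the signal. Of the 104 cells, 93 had a UMI of the leukocyte genes Ptprc or Tyrobp, and 63 of the 104 had those together with Col1a1 or Krt5, markers of fibroblasts and keratinocytes. In AD, 33 of 1804 cells had at least 10 class II UMIs and held 95.4%. All 33 had a UMI of Ptprc or Tyrobp, and 4 had those together with Col1a1 or Krt5. These shares resemble those in gated cells of the same library, where a Col1a1 UMI was in 58.4% of macrophages, 56.6% of cDC2s and 60.7% of mature DCs in Ctrl, and in 6.59%, 4.55% and 13.3% in AD.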

How the results depend on the processing

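No paired analysis was possible because each group has 1 library. With 1 library per group, differences between mice or preparations cannot be told from those between Ctrl and AD, and counting intervals are a lower limit of the error. All 34 alternative log2 ratios of macrophages, cDC2s, mature DCs, Langerhans cells and monocytes were below 0. Of 312 alternative values, 122 moved by more than counting error or 1.5 times, and the ratios to background RNA in dFBs crossed 1. Scrublet's own threshold marked 3.465% of Ctrl cells and 0 AD cells, so leaving out its doublets was not run. Leaving out the highest 5% of scores, the list without Lyz2, the cell left out and the macrophages without dendritic markers were chosen after seeing the data. The causes were not tested.

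With all barcodes, the log2 ratios of macrophages, cDC2s and mature DCs were -1.04, -0.54 and -1.70, the share held by dendritic and Langerhans cells 60.1% in Ctrl and 46.0% in AD, and the ratio to background RNA 1.01 in Ctrl dFBs, 1.15 in AD dFBs and 1.29 in Ctrl lymphatic endothelium. A stricter gate gave -0.29 for cDC2s, shares of 55.2% and 45.3%, 1.503 for AD dFBs and 1.25 for Ctrl lymphatic endothelium. A looser gate gave -0.48 for cDC2s, shares of 61.9% and 48.5%, and 1.02 for Ctrl dFBs. Leiden clusters gave -0.63, -0.54 and -1.47, shares of 78.9% and 62.8%, 0.899 and 0.897 for Ctrl and AD dFBs, and 1.31 for AD lymphatic endothelium. Without the highest Scrublet scores, cDC2s were at -0.48, mature DCs at -1.86, the shares 65.2% and 48.0%, dFBs 0.902 and 1.05, and Ctrl lymphatic endothelium 1.86. The mean of per-cell CPM gave -1.65 for macrophages and -1.73 for mature DCs, and macrophages without dendritic markers -1.14.

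Single reference genes gave 0.221 to 1.18 in Ctrl dFBs, 0.126 to 1.60 in AD dFBs, 0.421 to 3.23 in Ctrl and 0.460 to 8.51 in AD lymphatic endothelium, so the side of 1 on which a type falls depended on the gene used. Without Lyz2 Ctrl dFBs were at 0.918, and with the profile of gated leukocytes AD dFBs were at 1.38. Without the top cell, dFBs were at 0.887 and 0.909 and lymphatic endothelium at 1.19 and 1.33. Pathway genes lower and higher in AD macrophages were 5 and 2 from 20 CPM up, and 6 and 5 at 1.5-fold.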
